A study of Gallus gallus with 9 samples.

Results

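Histones and DNA carry chemical marks that enzymes set (writers), remove (erasers) and that other proteins bind (readers), while remodelers use ATP to move or evict nucleosomes. The genes described here belong to 10 such families. Erasers comprised 9 HDAC and 6 SIRT genes, which take acetyl and other acyl groups off lysines, and 14 KDM genes, which take off methyl groups. Writers, grouped by family name alone, comprised 6 KMT, 7 SETD and 2 EZH genes for lysine methylation and 3 DNMT genes for DNA methylation. Readers were 5 CBX genes, and remodelers were 8 CHD and 12 SMARC genes. Members were found by the symbol of the array's annotation, which had to start with one of these names, and each gene was read from 1 probe set, the one with the highest mean signal in blood. The rule used no difference between groups, and it gave 72 genes of the 13009 with a symbol. Birds keep the nucleus in their red cells, and its chromatin is packed ever more densely as the cell matures, with loss of most transcription and gain of a special linker histone.

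Blood had been drawn from the heart of chick embryos at embryonic days 4 (E4) and 6 (E6) and parted on a density gradient into a heavy fraction of red blood cells (RBCs) and a light fraction of the remaining cells, called non-red blood cells (nRBCs). Total RNA of each fraction was amplified in 2 cycles, labelled with biotin and hybridised to the Affymetrix chicken array. Each stage and fraction had 2 arrays, making 4 RBC and 4 nRBC arrays. A further array held RNA of the whole E6 heart, the tissue through which the blood was drawn. The heading of its column says E4, and the sample label, which says E6, was followed. The labels name no treatment or mutation, no strain is named in them, and each array held a pool of embryos. The nRBC fraction was separated by density alone and could hold several cell types and red cells. The study reported its cells as negative in the benzidine stain and the fraction as strongly depleted of red cells. Levels below are log2 signals after quantile normalisation, and differences are nRBC minus RBC on that scale unless stated otherwise, so that a difference of 1 is a doubling of the signal. The scanner software also called each probe set Present, Marginal or Absent on each array, and the call given for a gene is that of its chosen probe set.

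Arrays of one fraction correlated at 0.82 to 0.86 (RBC) and 0.87 to 0.90 (nRBC) over all probe sets, against 0.76 to 0.83 between fractions. Of the 13009 genes, 38.3 to 46.7% were Present on an RBC array and 54.0 to 55.4% on an nRBC array. Erythroid markers were high in both fractions, and 0 of their 10 measured genes passed between them. Their summed linear signal was 62066 to 72718 in RBCs, 53681 to 75374 in nRBCs and 9051 in the heart. By QPCR, a measure unlike these sums, the study found hemoglobin transcripts significantly higher in RBCs. Thrombocyte markers were higher in nRBCs for 4 of 5 genes, with a summed linear signal of 4080 to 7373 in RBCs and 10837 to 20857 in nRBCs. Fibroblast markers were higher for 7 of 10 genes (154 to 258 against 3326 to 8577, and 26488 in the heart; PDGFRA was Present on no blood array). Cardiac muscle markers were higher for 7 of 12 genes (137 to 231 against 1238 to 5285, and 58168 in the heart). Macrophage markers were higher for 3 of 12 genes (479 to 853 against 1080 to 4153), with TLR4, LYZ, ITGB2 and C1QC Present on no blood array. Endothelial markers were higher for 4 of 10 (242 to 504 against 531 to 991), and none of the 10 was Present on an RBC array. By the probe set read, PECAM1, TIE1, FLT1, ESAM and ROBO4 were Present on no blood array, though another probe set of PECAM1 was Present on 5. GAPDH has a probe set near each end of its transcript, and the 3′ signal over the 5′ signal, higher in degraded or short amplified RNA, was 9.44 to 11.1 on RBC arrays, 12.7 on E6 nRBC replicate 1, 4.22 to 5.99 on the other nRBC arrays and 2.08 in the heart. Except on E6 nRBC replicate 1 the ratio followed the fraction, so that they cannot be fully told apart. Its part in the calls and differences between fractions below was not tested. The first replicates of both RBC groups, E4 nRBC replicate 1 and both E6 nRBC arrays had 1182 to 2172 signals under 1, and the other 3 blood arrays had 188 to 256.

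Transcripts of the chromatin genes were found in both fractions. Of the 72 genes, 33 were Present on all 8 blood arrays (45.8%, against 32.2% of all genes with a symbol), 25 on some and 14 on none (19.4% against 33%). Of these 14, 6 (CBX8, CHD6, DNMT3A, HDAC10, KDM8 and SETDB2) had another probe set that was Present on at least 1 blood array, and 8 had none. The number Present was 48, 40, 44 and 39 on the RBC arrays (E4 replicates 1 and 2, then E6) and 48, 49, 50 and 52 on the nRBC arrays. Calls were equal in number between the fractions for 52 genes, more frequent in nRBCs for 17 and more frequent in RBCs for 3, and these 3 (KDM1B, KDM2B and KDM7A) were all lysine demethylases. All genes with a symbol showed a like split, with 26.5% more often Present in nRBCs and 4.90% in RBCs. DNMT genes were the family with no Present call on any RBC array.

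**Figure D1:**
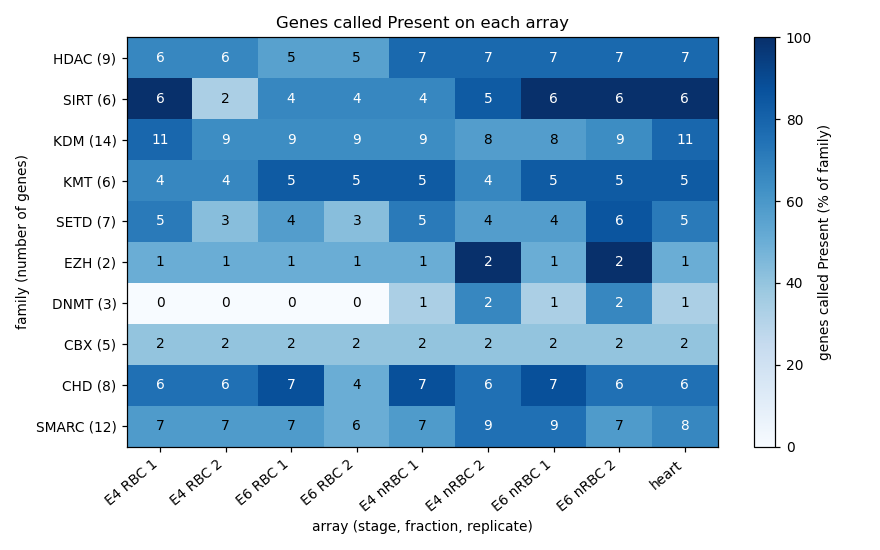
Number of genes of each family called Present on each array (rows: family with its number of genes; columns: the 4 RBC, 4 nRBC and 1 heart arrays), coloured by the share of the family in percent. The 3 DNMT genes had no Present call in RBCs, whereas the HDAC genes had 5 or 6 in RBCs and 7 in nRBCs.

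The first comparison asked which chromatin genes differ in level between the RBC and nRBC fractions. HDAC9, DNMT3B and CHD4 were higher in nRBCs, by 2.91, 3.09 and 1.75, and 0 of the 72 genes were lower (limma over all 38439 probe sets, Benjamini-Hochberg adjusted p under 0.05). The other 69 did not pass. These 3 genes are 4.17% of the members, where 6.86% of all genes with a symbol were higher and 0.669% lower (4.56% and 0.809% of all probe sets). At an unadjusted p under 0.05, 6 members were higher, the further ones being SMARCD2, CBX3 and HDAC4, and 0 were lower (8.33% and 0%, against 13.8% and 8.93% of all genes with a symbol). The study also ran a t-test between the fractions, without stating an adjustment, and found nearly all probe sets not different. Here a t-test at unadjusted p under 0.05 called the same 6 higher and 3 lower, HDAC7, SETD3 and SMARCAL1 (14% and 11.8% of all genes). After Benjamini-Hochberg adjustment it called CHD4 and HDAC9 higher, not DNMT3B, and 0 lower (5.16% and 1.41% of all genes). SAM, a permutation method that the study used, called 0 members at delta 2.5 (1.73% of all genes higher and 0% lower), and at delta 0.9 the same 3 higher and 0 lower (7.88% and 0% of all genes). The arrays of the fractions did not overlap for 5 members, all higher in nRBCs (6.94%, against 11.8% of all genes with a symbol), and for 0 lower ones (against 8.04%). The median difference of the members was -0.016, that of all genes with a symbol -0.13 and that of all probe sets -0.20. Differences were above 0 for 34 members and below 0 for 38.

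**Figure D2:**
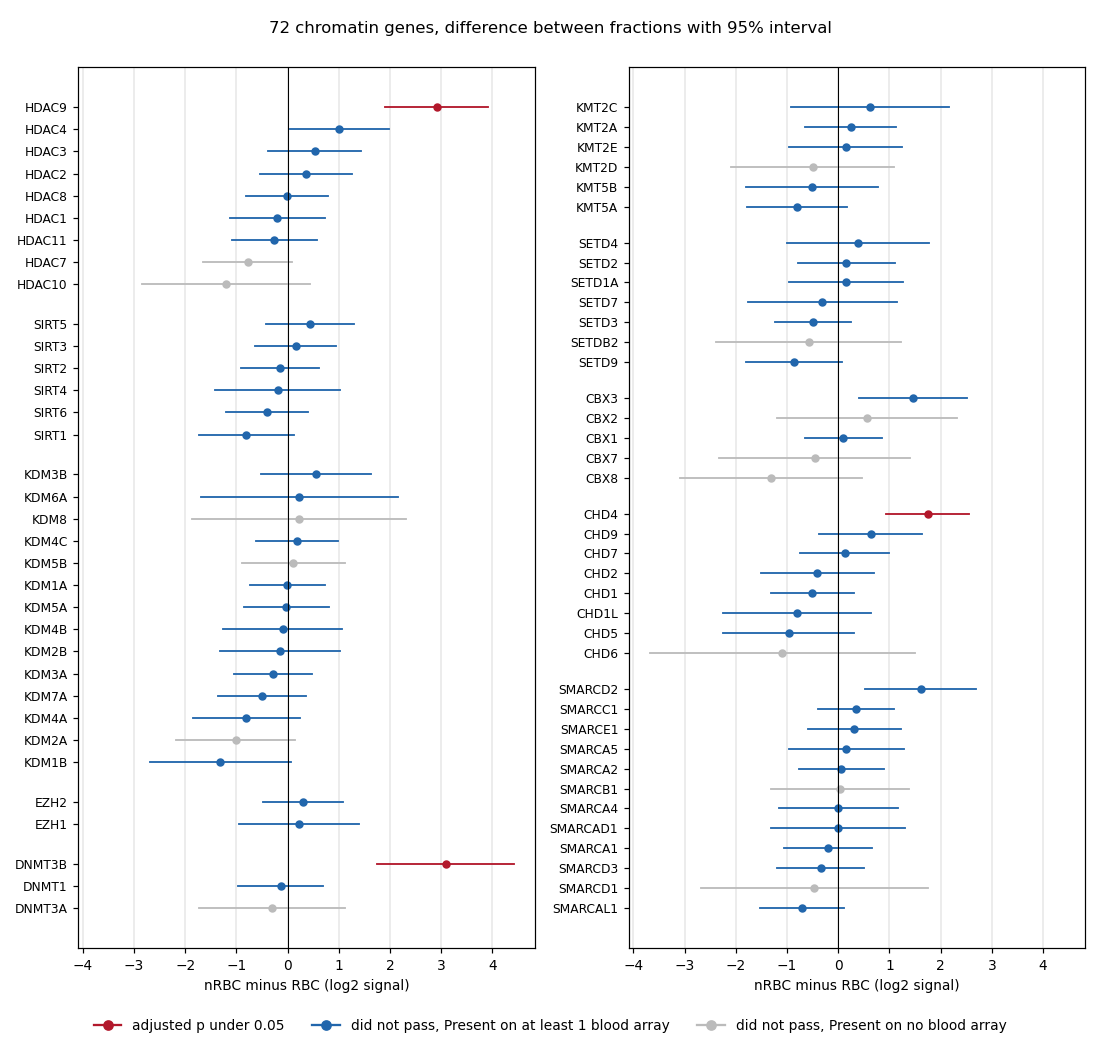
Difference between nRBC and RBC arrays (log2 signal, x axis) of all 72 genes, grouped by family, with 95% intervals from limma (4 and 4 arrays). HDAC9, DNMT3B and CHD4 (red) passed, and the intervals of most other genes reach across 0.

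The intervals set how far genes that did not pass could still differ in relative level, given the spread between arrays. The arrays started from equal amounts of RNA and were quantile normalised. A difference between the fractions in total RNA per cell would therefore not be seen. Over the 72 genes their median length to each side of the estimate was 1.01, or about 2-fold. The 95% interval lay within 1 of 0 on both sides for 9 members and within 2 for 52. Among the 33 genes Present on all 8 arrays these were 6 and 30. Estimated differences were under 0.5 in size for 45 members.

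HDAC9 is a class IIa deacetylase, a group with weak enzyme activity of its own that binds MEF2 transcription factors and represses their targets, known in heart and skeletal muscle and in blood cells. Its signal was 3.21 and 3.32 in E4 RBCs and 3.59 and 4.86 in E6 RBCs. In nRBCs it was 6.99 and 6.34 at E4 and 6.80 and 6.50 at E6. The lowest nRBC array was thus above the highest RBC array, and the gene was Present on all 4 nRBC and no RBC arrays. The difference was 2.91 (95% interval 1.91 to 3.92, adjusted p = 0.0053). By this estimate the level in nRBCs was at least 7.54-fold higher. The fold was computed against the RBC signals, since none was under the lowest Present signal of its array. Here and below "at least" allows for Absent calls, not for the spread between arrays, so that the interval can reach lower folds. In the heart the gene was Present at 8.24, above all blood arrays. Cardiac muscle and fibroblast markers were higher on the same nRBC arrays (summed signals of 1238 to 5285 and 3326 to 8577, against at most 231 and 258 in RBCs). Their part in this result and in those of DNMT3B and CHD4 was not tested, nor was that of the GAPDH ratio. On the 5 arrays with many signals under 1 the difference was 3.36 (adjusted p = 0.031). Fewer cells that carry a transcript and less of it per cell cannot be told apart in RNA of whole fractions, for this and every gene below.

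DNMT3B, a de novo DNA methyltransferase that sets methylation on unmethylated CpG sites and is known for its activity in early embryos and stem cells, gave the largest difference of the 72 genes. It was read at 5.37 and 5.51 in E4 RBCs and at 4.63 and 4.70 in E6 RBCs, Absent throughout. The nRBC arrays read 7.96 and 9.80 at E4 and 7.77 and 7.03 at E6, all Present. E4 nRBC replicate 2 stood highest, and no nRBC array reached down to an RBC array. The difference was 3.09 (95% interval 1.75 to 4.42, adjusted p = 0.016), and by this estimate the level in nRBCs was at least 8.49-fold higher. The heart, at 6.29 and Present, lay between the fractions, 1.85 below the nRBC mean and 1.24 above the RBC mean. On the 5 arrays with many signals under 1 the difference was 2.59 and did not pass (adjusted p = 0.094).

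CHD4 is the ATPase of the NuRD complex, which joins nucleosome remodeling with histone deacetylation. Its signal was 6.54 and 6.74 in E4 RBCs and 7.21 and 6.76 in E6 RBCs, Present on 3 of the 4. nRBCs read 8.07 and 8.81 at E4 and 8.90 and 8.44 at E6, Present on all. The ranges did not overlap, and the spread within each fraction was small (SD 0.28 and 0.38). The difference of 1.75 (95% interval 0.94 to 2.55, adjusted p = 0.023) is a 3.35-fold higher level. The call was near the threshold. Without E4 RBC replicate 1 or 2, E6 RBC replicate 2, E4 nRBC replicate 2 or E6 nRBC replicate 1 or 2 the adjusted p was 0.059, 0.053, 0.054, 0.075, 0.058 and 0.054, with a difference of 1.63 to 1.78. On the 5 arrays with many signals under 1 it was 1.60 (adjusted p = 0.26). The heart read 9.10, above every blood array.

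**Figure D3:**
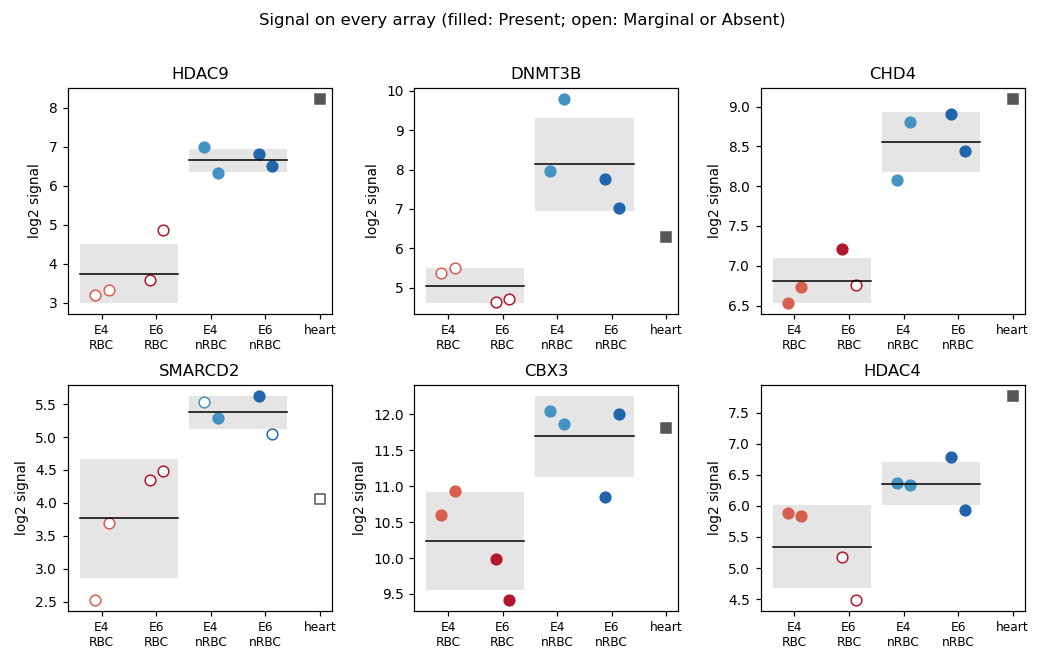
Log2 signal on every array (points; filled where Present) of the 6 genes with an unadjusted p under 0.05, with the mean (line) and SD (grey band) of the 4 RBC and the 4 nRBC arrays, and the heart (square). HDAC9, DNMT3B and CHD4 passed; the RBC and nRBC points of CBX3 overlap, and those of SMARCD2 and HDAC4 do not.

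Among the other deacetylases, the class I enzymes HDAC1, HDAC2, HDAC3 and HDAC8 were Present on all 8 blood arrays. HDAC1, HDAC2 and HDAC3 work in repressor complexes in most cells. HDAC1 was 9.08, 8.81, 9.10 and 8.26 in RBCs and 9.16, 8.36, 7.91 and 9.03 in nRBCs. HDAC2 was 10.86, 10.16, 10.05 and 9.90 against 10.83, 10.96, 9.87 and 10.76. Neither separated the fractions, with differences of -0.20 (interval -1.13 to 0.74) and 0.36 (-0.54 to 1.26). HDAC3, the enzyme of the NCOR complexes, was 6.45 and 6.28 in E4 RBCs, 5.29 and 5.40 in E6 RBCs, and 6.46, 6.01, 6.38 and 6.69 in nRBCs, so that the E6 RBC arrays were below every other blood array (difference over all arrays 0.53, interval -0.37 to 1.44). Another HDAC3 probe set, Present on 4 blood arrays, did not show this pattern. It read 5.46 and 4.49 in E4 RBCs and 5.60 and 4.14 in E6 RBCs, and differed by -0.37 (interval -1.62 to 0.88). HDAC8 differed by -0.01 (interval -0.81 to 0.80). Of class IIa, HDAC4 was 5.89, 5.84, 5.18 and 4.48 in RBCs and 6.36, 6.34, 6.79 and 5.93 in nRBCs. Its ranges lay next to each other without overlap, Present on 2 RBC and 4 nRBC arrays, and the difference of 1.01 (interval 0.05 to 1.97) did not pass (adjusted p = 0.23). HDAC7 was Present on no blood array, nor was the chosen probe set of HDAC10, another of which was Present on 5 and differed by -0.25. A further HDAC10 probe set, Present on 2 nRBC arrays and on no RBC array, differed by 2.90 (interval 0.66 to 5.15). It did not pass (adjusted p = 0.15). HDAC11, the class IV enzyme, was Present on all 8 and differed by -0.26.

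All 6 sirtuins, deacylases that use NAD, were Present on at least 1 blood array, and 0 passed. SIRT1, a nuclear enzyme, had the lowest p of the family, with 7.06, 6.20, 7.26 and 6.54 in RBCs and 5.88, 5.90, 6.65 and 5.44 in nRBCs. E6 nRBC replicate 1 was above both second RBC replicates, the other nRBC arrays were below every RBC array, and the difference was -0.80 (interval -1.73 to 0.13, adjusted p = 0.32). SIRT6, also bound to chromatin, was 7.22, 6.55, 7.46 and 6.98 against 6.78, 6.80, 6.31 and 6.70, a difference of -0.41 (interval -1.20 to 0.39). The mitochondrial SIRT4 was read at 5.71, 3.89, 6.50 and 5.74 in RBCs, with 1 array far under the others, and at 5.18, 5.31, 5.37 and 5.20 in nRBCs. SIRT2, SIRT3 and SIRT5 differed by -0.15 to 0.44.

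Lysine demethylases showed no called difference in 14 genes, with estimates from -1.31 (KDM1B) to 0.55 (KDM3B). KDM1A, or LSD1, removes methyl groups from histone H3 in the CoREST complex and is needed for blood formation in mouse. It was 9.63, 9.56, 9.95 and 10.09 in RBCs and 9.83, 9.98, 9.63 and 9.74 in nRBCs. The arrays of both fractions lay close together, with a difference of -0.01 and an interval of -0.74 to 0.72. Its relative KDM1B was 4.68, 5.61, 3.93 and 5.25 in RBCs, Present on 2 arrays, and 4.45, 4.30, 2.07 and 3.41 in nRBCs, Present on none. The ranges overlapped and the difference of -1.31 (interval -2.69 to 0.06) did not pass (adjusted p = 0.28). KDM4A, a demethylase of histone H3 lysines, differed by -0.81 (interval -1.85 to 0.24). Another KDM4A probe set, Present on 5 blood arrays, differed by 0.70 (interval -0.65 to 2.04), and a further one, Present on none, by 0.29. KDM3A, KDM4B, KDM4C and KDM5A, Present on all 8 arrays, differed by -0.28 to 0.19. KDM2A and KDM5B were Present on no blood array, nor was the chosen probe set of KDM8, whose other one was Present on 4 and differed by 0.02.

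Of the 15 KMT, SETD and EZH genes, grouped by name as writers of histone methylation, 0 were called. KMT5A, also named SETD8, puts the single methyl group on histone H4 that goes with compaction of chromatin, and is needed for red cell maturation in mouse. It was 7.51 and 7.36 in E4 RBCs and 6.30 and 6.30 in E6 RBCs, and in nRBCs 6.17, 5.90, 5.64 and 6.54. The E4 RBC arrays were above all nRBC arrays and the E6 RBC arrays were among them. Over all arrays the difference was -0.80 (interval -1.77 to 0.17, adjusted p = 0.35), at E4 -1.40 (adjusted p = 0.32) and at E6 -0.21 (adjusted p = 0.89). KMT5B, which adds further methyl groups at the same lysine, was 4.13, 4.55, 5.89 and 5.69 against 4.91, 3.30, 4.91 and 5.13, a difference of -0.50 (interval -1.79 to 0.79).

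KMT2A, KMT2C and KMT2D encode large methyltransferases of the MLL group, which mark active promoters and enhancers. KMT2C was 7.83, 8.0, 9.12 and 9.10 in RBCs and 7.53, 9.01, 10.86 and 9.17 in nRBCs, so that the nRBC arrays spread more widely (SD 1.36) than the difference of 0.63 between the fractions. Another KMT2C probe set, also Present on all 8 blood arrays, differed by -0.58 (interval -1.89 to 0.74), and the further ones by 0.0028 to 1.01. KMT2D was read at 3.18, 4.34, 3.41 and 1.82 against 4.30, 2.88, 1.80 and 1.78, Absent on every array. KMT2A and KMT2E, Present on all, differed by 0.25 and 0.15. Of the SETD genes, SETD3, an enzyme that methylates actin, was 8.85, 8.76, 8.73 and 8.97 against 7.99, 8.75, 8.34 and 8.25, overlapping by E4 nRBC replicate 2 alone (difference -0.50, interval -1.24 to 0.25). SETD9 was 7.85, 8.11, 7.28 and 7.23 against 7.45, 6.78, 6.05 and 6.74 (difference -0.86, interval -1.81 to 0.08, adjusted p = 0.30). Its other probe sets differed by -1.12 (interval -1.92 to -0.32, no overlap of arrays, adjusted p = 0.12) and -0.52, and neither passed. SETD2, which methylates histone H3 behind elongating polymerase, differed by 0.16. EZH2, the methyltransferase of Polycomb repressive complex 2, was 10.44, 10.41, 9.88 and 9.95 in RBCs and 10.64, 10.75, 10.38 and 10.11 in nRBCs. Both E6 nRBC arrays lay within the RBC range, and the difference was 0.30 (interval -0.48 to 1.08). Another EZH2 probe set, Present on 5 blood arrays, differed by -0.59 (interval -1.89 to 0.71), and a further one, Present on none, by -1.14. Its relative EZH1 was Present on no RBC and 2 nRBC arrays and differed by 0.22.

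DNMT1 copies methylation onto new DNA strands after replication. Its probe set was Present on no RBC and 2 nRBC arrays, although the RBC signals of 6.34, 6.71, 6.27 and 5.51 were as high as the 6.0, 6.33, 5.97 and 5.98 of nRBCs. The difference was -0.14 (interval -0.97 to 0.70). Cell cycle genes, a list set beside it, had 0 of 18 passing and a summed linear signal of 18907 to 35894 in RBCs and 11624 to 30749 in nRBCs.

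Readers did not pass in any of 5 genes. CBX1, CBX3 and CBX5 encode the HP1 proteins that bind methylated histone H3 in heterochromatin; CBX5 was not among the annotated members. CBX3 was 10.61, 10.94, 9.99 and 9.41 in RBCs and 12.05, 11.86, 10.85 and 12.01 in nRBCs. E6 nRBC replicate 1 was lower than E4 RBC replicate 2, and the other 3 nRBC arrays were above every RBC array. The difference of 1.46 (interval 0.40 to 2.51) did not pass (adjusted p = 0.13). It passed when 16 was added to the signals, when probe sets with under 2 Present calls in blood were left out, and with an intensity trend (adjusted p = 0.044, 0.040 and 0.024). CBX1 was 8.30, 8.95, 8.35 and 8.84 against 8.75, 8.75, 8.54 and 8.81, a difference of 0.10 (interval -0.65 to 0.86). The Polycomb readers CBX2 and CBX7 were Present on no blood array and not in the heart, nor was the chosen probe set of CBX8, whose other one was Present on 1 nRBC array.

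Of the 20 remodelers, CHD4 was the one called. SMARCD2, a subunit of SWI/SNF complexes that is needed for granulocyte formation in mouse and human, was 2.52, 3.70, 4.35 and 4.49 in RBCs and 5.53, 5.29, 5.63 and 5.05 in nRBCs. No arrays overlapped, but Present calls were made on only 2 arrays, both of nRBCs. The difference was 1.61 (interval 0.52 to 2.70, adjusted p = 0.10), or at least 2.76-fold, and it passed when 16 was added to the signals (adjusted p = 0.031) and when probe sets with under 2 Present calls in blood were left out (adjusted p = 0.032). SMARCA4, the BRG1 ATPase of SWI/SNF, was 4.62, 6.28, 5.49 and 6.44 in RBCs and 5.01, 5.90, 6.47 and 5.47 in nRBCs, Present on 2 arrays of each. Its difference of 0.01 had an interval of -1.16 to 1.17. SMARCA2, the alternative ATPase, was Present on all 8 arrays and differed by 0.06.

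SMARCA5, or SNF2H, is the ATPase of ISWI complexes that space nucleosomes, and is needed for red cell formation in mouse. It was 11.22, 10.82, 10.29 and 9.58 in RBCs and 11.17, 10.56, 9.71 and 11.11 in nRBCs, a difference of 0.16 (interval -0.96 to 1.28). SMARCAD1, a remodeler linked to keeping heterochromatin after replication, was 6.79, 6.65, 6.60 and 5.51 against 7.30, 6.24, 4.93 and 7.08. The mean was 6.39 in both fractions, and the spread among nRBC arrays was wide (SD 1.08). CHD2 was 7.72, 7.26, 9.00 and 8.49 against 7.74, 6.92, 8.08 and 8.10 (difference -0.41), and CHD9 was 5.27, 6.44, 6.34 and 5.75 against 5.94, 6.27, 7.30 and 6.84 (difference 0.64). Both overlapped. SMARCC1 and SMARCE1, core SWI/SNF subunits, differed by 0.34 and 0.31, and SMARCAL1, an annealing helicase at replication forks, by -0.70 (interval -1.52 to 0.12). The other SMARCAL1 probe sets differed by -1.04 (interval -1.96 to -0.11, no overlap of arrays, adjusted p = 0.20), -2.09 and -0.14, and none passed.

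The members had 181 probe sets in all, with 21 genes having 1 and 51 several. Over all of these, 4 were higher and 1 was lower, where 4.56% of all 38439 probe sets were higher and 0.809% lower. DNMT3A, the second de novo DNA methyltransferase, depended on which was read. The probe set with the highest mean was read at 6.62, 6.03, 7.13 and 8.58 in RBCs and 6.14, 6.08, 7.85 and 7.05 in nRBCs, Absent throughout, and differed by -0.31 (interval -1.73 to 1.11). The other probe set was 2.73, 4.98, 3.15 and 4.71 in RBCs and 5.81, 7.63, 7.26 and 6.41 in nRBCs, Present on 2 nRBC arrays and in the heart at 7.41. It was higher in nRBCs by 2.89 (interval 1.45 to 4.32, adjusted p = 0.032), at least 6.92-fold, and was named after its values were seen.

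The further probe sets of the called genes did not pass. For HDAC9 they differed by -0.91 (Present on no blood array) and 0.01 (Present on 1 array of each fraction). The second of DNMT3B, Present on none, differed by 0.33. Those of CHD4 differed by -0.41, 0.62 and -0.07, and the middle one alone was Present, on 2 arrays of each fraction. The 1 lower probe set belonged to SMARCE1, read at 5.17, 6.18, 4.75 and 5.68 in RBCs and 3.82, 3.70, 3.50 and 4.13 in nRBCs, with 1 Present call in RBCs. By the estimate it was at least 3.16-fold lower in nRBCs (difference -1.66, interval -2.57 to -0.74, adjusted p = 0.049). The other SMARCE1 probe sets, Present on all 8 arrays, differed by 0.31 and 0.37, in the opposite direction. The calls for these genes rest on 1 probe set each.

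**Figure D4:**
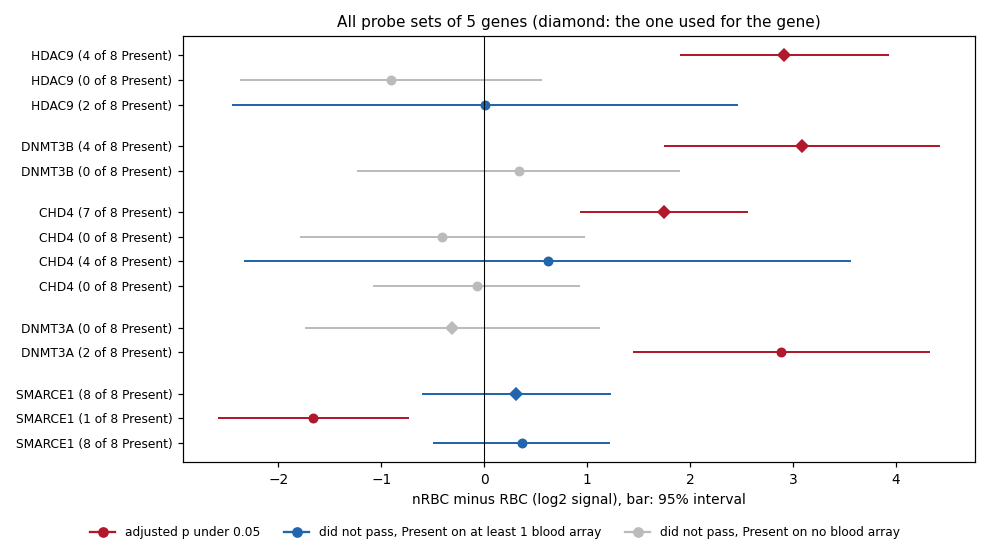
Difference between nRBC and RBC arrays (log2 signal, x axis) with its 95% interval for every probe set of 5 genes. The diamond marks the probe set used for the gene, the label gives its Present calls on the 8 blood arrays, and in each of HDAC9, DNMT3B and CHD4 the diamond alone passed.

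The second comparison asked whether the fractions differ at each stage, and whether the levels change from E4 to E6 as red cells mature. With 2 arrays a group, HDAC9 was the 1 member called at E4 (difference 3.40, interval 1.98 to 4.82, adjusted p = 0.0495; 2.19% of all genes with a symbol were higher and 0.0307% lower). The call at E4 was lost with median scaling, with the array scale as a block and without any 1 of 6 arrays (either replicate of E4 RBCs, E4 nRBCs or E6 nRBCs). At E6 it differed by 2.43 (interval 1.01 to 3.84, adjusted p = 0.12), and 0 members were called, where 2.41% of all genes were higher and 0.0307% lower. DNMT3B differed by 3.44 at E4 (adjusted p = 0.078) and 2.73 at E6 (adjusted p = 0.13), and CHD4 by 1.80 and 1.69 (adjusted p = 0.20 and 0.21). The change of these differences between the stages was -0.98, -0.71 and -0.11, and the test of that change called 0 members and 0 of all probe sets (at an unadjusted p under 0.05, 0 members, where 1.9% of all genes had a higher and 1.84% a lower difference at E6).

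From E4 to E6, 0 members passed in RBCs and 0 in nRBCs by limma, as did 0 of all probe sets. At an unadjusted p under 0.05 there were 3 in RBCs, all lower at E6, and 0 in nRBCs. The 3 are 4.17% of the members, where 4.24% of all genes with a symbol were lower and 2.99% higher in RBCs, and 1.54% lower and 1.41% higher in nRBCs. They were SETD7, a lysine methyltransferase of histones and other proteins (7.17 and 7.82 at E4, 5.18 and 5.55 at E6), SMARCD1, a SWI/SNF subunit (4.93 and 3.92, then 1.46 and 1.24), and KDM8 (6.77 and 8.31, then 4.04 and 6.26). The probe sets read for SMARCD1 and KDM8 were Present on no blood array, and the lowest adjusted p was 0.47, for SETD7. Among genes Present on every array of the higher stage, the lowest differences of E6 minus E4 in RBCs were those of KMT5A (-1.13, interval -2.37 to 0.10) and SMARCA5 (-1.09, interval -2.62 to 0.44). The highest were those of KMT5B (1.45, interval -0.07 to 2.96) and SIRT4 (1.32, interval -0.33 to 2.97).

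In nRBCs the highest were those of KMT2C (1.74, interval -0.04 to 3.53) and CHD9 (0.97, interval -0.44 to 2.37), and the lowest those of DNMT3B (-1.48, interval -3.14 to 0.18) and SMARCAD1 (-0.77, interval -2.75 to 1.22). All 8 intervals hold 0. The stage difference had the same sign in both fractions for 51 of the 72 genes (70.8%, against 60% of all genes with a symbol). It was above 0 in both for KMT2C, CHD2 and KDM4A and below 0 in both for SMARCA5 and CBX3. The median stage difference of the members was -0.06 in RBCs and -0.03 in nRBCs, beside -0.0014 and -0.06 for all genes with a symbol.

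**Figure D5:**
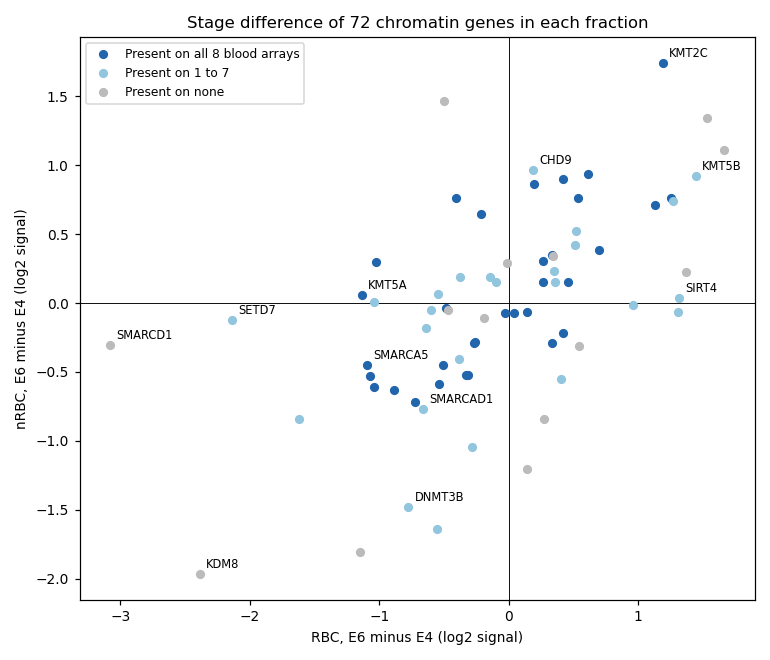
E6 minus E4 difference (log2 signal) in RBCs (x axis) and nRBCs (y axis) of the 72 genes, 2 arrays per stage and fraction, coloured by the number of blood arrays on which the gene was Present. None of the differences passed; the farthest points on the left, SMARCD1 and KDM8, were Present on no blood array by the probe set read.

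The heart array, a single library with no replicate and hence no test, shows where the blood levels stood against a solid tissue. Of the 72 genes, 52 were Present there. The heart was above all 4 nRBC arrays for 10 genes (13.9%, against 22.8% of all genes with a symbol), below all 4 for 20 (27.8%, against 29.6%) and within their range for 42. The median difference of heart minus nRBC mean was -0.15 for the members and -0.11 for all genes with a symbol, and heart minus RBC mean was -0.39 and -0.22. The direction of these medians turned to 0.05 and 0.05 when arrays were instead scaled to the median signal of those probe sets that were Present in all 8 blood samples.

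Of the 10 genes above all nRBC arrays, 4 were HDAC genes, of 9 in that family, where 22.8% of all genes with a symbol were above. HDAC9 was 1.58 and HDAC4 1.42 above the nRBC mean (heart 8.24 and 7.78, both Present), and HDAC2 and HDAC8 were 0.47 and 0.46 above it. HDAC2 and HDAC8 were little above the highest nRBC array, at 11.08 against 10.96 and 8.81 against 8.64. SMARCB1 was Absent in the heart and in blood, and so was KMT2D, whose heart reading of 3.88 was above the nRBC mean but within the nRBC range, so that neither difference is a measured one. CBX1 and SIRT6 were 0.21 and 0.23 above the nRBC mean. CHD4 was above the nRBC mean by 0.54, SMARCA1 and SMARCA2 by 0.60 each. DNMT1 was Absent in the heart, with a reading of 2.91 that was below the 5.97 to 6.33 of nRBCs, where it was Present on 2 arrays. KMT2C (7.09) was 2.05 below and DNMT3B (6.29) 1.85 below, both below every nRBC array by the probe set read. Another KMT2C probe set, Present on all 8 blood arrays, read 5.77 in the heart, within its nRBC range of 5.49 to 8.10. Further KMT2C probe sets lay below, within or above their nRBC ranges. The probe set of DNMT3A that was Present in the heart read 7.41, within the nRBC range of 5.81 to 7.63. SMARCA5 at 9.47, KDM1A at 8.90 and EZH2 at 9.72 were Present in the heart and below every blood array by the probe sets read. Another EZH2 probe set read 6.88 in the heart, within its nRBC range of 4.96 to 7.23, and a further one, Absent there, was below every blood array. Other KDM1A probe sets read 5.05, within their nRBC range, and 4.99, below every blood array.

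Genes outside the naming rule were read from 8 lists, of partners of the members and, in the last list, of nuclear condensation. They held 143 measured genes in all. Of these, 1 was higher in nRBCs, 2 were lower and 140 did not pass (10 higher and 13 lower at an unadjusted p under 0.05), with a median difference of -0.17. These are 0.699% higher and 1.4% lower, against 6.86% and 0.669% of all genes with a symbol, and at the unadjusted threshold 6.99% and 9.09%, against 13.8% and 8.93%. The higher one was RCOR3, a corepressor of the CoREST family, whose proteins bind KDM1A. It was 7.33, 8.0, 7.67 and 7.24 in RBCs and 10.57, 10.87, 10.51 and 10.24 in nRBCs, Present on all 8 arrays, a difference of 2.99 (interval 2.20 to 3.77, adjusted p = 0.0013). The arrays of the fractions were over 2 apart, and the heart read 11.13. KDM1A itself did not pass, as given above. The lower ones, CECR2 (-2.42), a partner of ISWI ATPases, and BRD2 (-1.78), a reader of acetylated histones, were Present on no blood array, so that their size is not given a fold.

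By group, 0 of 19 Polycomb partners passed, and the PRC2 subunits EED and SUZ12, Present on all 8 arrays, differed by 0.53 and -0.16. Among 18 NuRD, SIN3 and NCOR partners RCOR3 was the one called. MBD3, the methyl-CpG-binding-domain subunit of NuRD and thus a partner of CHD4, differed by 1.14 (interval 0.29 to 2.00) with no overlap of arrays and did not pass (adjusted p = 0.14). None of 15 acetyltransferases passed; KAT2A (GCN5) differed by 2.39 (interval 0.78 to 4.0, adjusted p = 0.10). Of 10 DNA methylation partners 0 passed, with TET2, which oxidises methylcytosine, at 1.54 (interval 0.68 to 2.40, adjusted p = 0.052) and UHRF1, the guide of DNMT1, at -1.20 (adjusted p = 0.20). Of 23 SWI/SNF and ISWI partners, 13 acetyl-lysine readers and 17 methyltransferases outside the rule, CECR2 and BRD2 were the ones called.

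Nuclear condensation was read from the last of the 8 lists, of 43 genes, among them linker histones, HMG proteins, lamins, condensins and histone chaperones. Of these, 28 were measured, and 22 were Present on all 8 blood arrays. By limma 0 passed, where 6.86% of all genes with a symbol were higher and 0.669% lower. At an unadjusted p under 0.05, 2 were higher and 3 lower, where 13.8% of all genes with a symbol were higher and 8.93% lower. HMGN4, which loosens chromatin by binding nucleosomes, differed by 1.44 (interval 0.61 to 2.27, adjusted p = 0.059), and LMNB1, a lamin of the nuclear envelope, by 1.15 (adjusted p = 0.15). RIOK3, a kinase linked to red cell enucleation in mouse, differed by -1.46 (interval -2.56 to -0.36, adjusted p = 0.14). The condensin subunits SMC2 and SMC4 differed by -0.04 and -0.40.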

How the data were processed

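The authors had amplified total RNA in 2 cycles and hybridised it to 9 Affymetrix chicken arrays. Their deposited table holds MAS5 signal intensity on a linear scale, not scaled between arrays, with a detection call per probe set. The deposited series matrix holds log2 of the same values minus each array's mean (largest deviation 1.3e-06, array medians -0.25 to -0.13) and served as an alternative. Depth has no counterpart on arrays, and the number of arrays limits precision.

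Of 38535 probe sets 96 controls were left out. Signals of 0 (11 on the blood arrays) were set to 0.1, and log2 signals were quantile normalised over the 8 blood arrays. The heart was mapped onto the same quantiles. The contrast of the 4 nRBC with the 4 RBC arrays was fitted in limma 3.58.1 (R 4.3.3). Stage, fraction within stage and their interaction came from a limma model with 4 group means. The p-values were Benjamini-Hochberg adjusted over all 38439 probe sets, called under 0.05, and measure the spread between arrays. The fit was tested on simulated data. Duplicate arrays come from separate pools, and the sources used here do not say if an RBC and an nRBC array were made from one pool.

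Where a gene was Present on no array of one fraction, the fold is "at least" that against each array's lowest Present signal (log2 2.18 to 3.11 on the arrays) or its own signal if higher. No fold was given where it was Present on no blood array. The platform annotation left 11094 probe sets without a symbol, 177 had more than 1 and 27168 had exactly 1. One probe set shared by SMARCC1 and another gene was left out. The gene IDs of 71 of the 72 members were in the RefSeq gene table. Genome coordinates and sequences were not used here.

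Members, lists and tests were chosen with earlier results of these data known. Values on every array are given for members called in any contrast, those of highest signal or lowest p in each family, the 2 extreme stage differences each way per fraction among genes Present on every array of the higher stage, 12 genes of known roles (CBX5 among them is no member), and the 3 members farthest above and below nRBCs in the heart. These rules named 29 members. Others are given by their difference, and SETD7, SMARCD1, KDM8, DNMT3A's other probe set and the lower SMARCE1 probe set were named after their values were seen.

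Alternatives were other scalings between arrays, 16 added to each signal, leaving out probe sets with under 2 Present calls in blood, the series matrix as input, a trend of variance with intensity, another probe set per gene, blocks for array scale and replicate number, stage as a covariate, only the arrays with many signals under 1, leaving out each array, the methods' SAM, and a t-test.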

Additional observations from a re-analysis of the deposited data

Results flagged for a closer look

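Of 58 groups of 4 arrays tested for a single array far from the other 3 (the 29 members chosen for values on every array, in RBCs and in nRBCs), 4 held such an array, and chance gives about 2.9. In nRBCs at E4, replicate 2 was low for KMT5B, at 3.30 against 4.91 to 5.13 on the other nRBC arrays, and high for DNMT1, at 6.33 against 5.97 to 6.0. For CBX3, replicate 1 of E6 nRBCs was low, at 10.85 against 11.86 to 12.05. That array also had the GAPDH 3′ to 5′ ratio of 12.7, and its part was not tested. SMARCAD1 was low on replicate 2 of E6 RBCs, at 5.51 against 6.60 to 6.79.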

How the results depend on the processing

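HDAC9 was called higher in all 20 alternative limma fits and DNMT3B in 19, the exception being the 5 arrays with many signals under 1. CHD4 was called in 12, and it was lost on those 5 arrays, with a replicate block and without each of 6 single arrays. For these 3 genes the fits on the series matrix and with another probe set per gene repeat the main fit, so their calls add no support. The count of members higher in nRBCs (3) was 5 with 16 added to every signal and when probe sets with under 2 Present calls in blood were left out (the Present filter), CBX3 and SMARCD2 being the further genes. It was 1 on the 5 arrays with many signals under 1, 0 by SAM at delta 2.5 (70 splits of the arrays), 3 by SAM at delta 0.9, 6 by an unadjusted t-test, which also called 3 lower, and 2 by that test after adjustment, DNMT3B being lost. Leaving out 1 array at a time gave 2 to 3. At E4 (1 called) there were 2 without normalisation, 0 with median scaling or the array scale as a block, 3 with 16 added or an intensity trend, 4 with the Present filter and 0 to 1 without single arrays. Leaving out either replicate of either E4 group, or either E6 nRBC array, gave 0. At E6 (0 called) there were 2 with 16 added, 2 with the Present filter and 3 with the trend. The median of heart minus nRBC (-0.15) was 0.052 with median scaling. That of heart minus RBC (-0.39) was -0.049 without normalisation, 0.051 with median scaling, -0.26 with the Present filter and -0.17 with the probe set of most Present calls, which also brought DNMT3A to 2.89 (adjusted p = 0.032). The cause of these moves was not tested. Arrays of the same number share only that number. Their deviations from the group means correlated at 0.08 (E4) and -0.05 (E6) over all probe sets, and at 0.41 and -0.25 over the 6595 that every blood array called Present. With the replicate number as a block, 2 members were higher, DNMT3B and HDAC9 (CHD4 adjusted p = 0.061), 0 were lower, and 0 were called at E4. Of 168 alternative values of the main results 141 stayed near the main value in size, and the heart medians changed sign as given above. Values from the series matrix, counted among these, could not move, since it holds the same signals less each array's mean. A count of 2 members against 3 was taken as near, so that the loss of CHD4 alone is not seen in the 141. Medians were taken as near when they moved by less than the SD between array medians. The 3 called genes kept their sign. Of 578 alternative values of the named members, 31 had the opposite sign, in 9 genes that were not called, and 1 of these passed (DNMT3A, 2.89, above). Without normalisation HDAC1 was 0.0096, KDM1A 0.041, DNMT1 0.095 and DNMT3A 0.018, and with median scaling DNMT1 was 0.028. SMARCAD1 was -0.0047 when the heart was normalised with the blood arrays, SMARCA4 -0.011 with 16 added, and KDM1A 0.022 and SMARCAD1 -0.11 with the array scale as a block. On the 5 arrays DNMT3A was 0.14, SMARCA5 -0.089 and SMARCAD1 -0.26. Leaving out single arrays gave -0.38 to 0.038 for HDAC1, -0.72 to 0.15 for SIRT4, -0.091 to 0.084 for KDM1A, -0.37 to 0.030 for DNMT1, -0.67 to 0.19 for DNMT3A, -0.00036 to 0.21 for CBX1, -0.36 to 0.25 for SMARCA4, -0.14 to 0.47 for SMARCA5 and -0.30 to 0.49 for SMARCAD1.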
